A study of Rattus norvegicus with 8 samples.

Results

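The cytosolic ribosomal protein genes described here were 73 protein-coding genes of the rat thyroid. They were the genes whose symbol starts with Rpl or Rps and a number, together with Rpsa, Rplp0, Rplp1 and Rplp2, that had a mean of at least 100 raw counts over 8 RNA-Seq libraries. The genes were thus chosen by symbol and by a measured value, the mean count, which is not tested here. Kinases named Rps6k and paralogs with the suffix l1 were left out, and each symbol was counted once, in its gene identifier and transcript with the most reads. The 73 genes were chosen out of 30560 gene identifiers. The 8 libraries came from the thyroids of male Wistar rats, 2 rats in each group. The groups were 1w0Gy (sham-irradiated at 1 week of age), 1w4Gy (4 Gy of X-rays to the neck at 1 week), 4m0Gy (sham-irradiated at 4 months) and 4m4Gy (4 Gy at 4 months). The thyroid was taken about 8 weeks after irradiation, so the ages of the rats at sampling differed as well as the ages at irradiation. The 2 RNA samples of the highest integrity in each group were the ones sequenced.

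The cytosolic ribosome has a small 40S subunit, which reads the mRNA, and a large 60S subunit, which joins the amino acids. Each protein of a subunit is present in about equal amounts in a finished ribosome, and the genes for them are among the most strongly transcribed of any cell. Their mRNAs begin with a C followed by an unbroken run of pyrimidines, the 5′ terminal oligopyrimidine (TOP) motif. Through this motif the mTOR pathway and the RNA-binding protein LARP1 set how much of the mRNA is translated and how stable it is, so that mRNA levels give only part of the picture of ribosome production. Some ribosomal proteins also have roles outside the ribosome. Rpl5 and Rpl11, when they are not built into ribosomes, bind the ubiquitin ligase MDM2 and so stabilise p53.

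The start of the genes is shown here because the TOP motif is the feature by which these mRNAs are recognised. Promoter entries of RefSeq (build GRCr8, 300 bases each) were matched by symbol for 54 of the 73 genes. A C followed by at least 4 further pyrimidines stood exactly at the annotated start in 19 of the 54, or 35.2%, against 2.63% of all 33469 promoter entries. Such a run began somewhere between 10 bases before and 15 bases after the start in 75.9% of the matched genes and in 33.6% of all entries. Each line below gives 60 bases before the annotated start and the first 20 bases from it, on the strand of the gene, with the pyrimidine run at the start in capitals. The first 4 genes have such a run, and the last 5, which are described with their values further on, do not have it at the annotated base.
Rplp0 (chr12:46718371-46718450, minus strand): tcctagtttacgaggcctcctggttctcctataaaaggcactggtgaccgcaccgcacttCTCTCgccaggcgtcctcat
Rplp1 (chr8:71290853-71290932, minus strand): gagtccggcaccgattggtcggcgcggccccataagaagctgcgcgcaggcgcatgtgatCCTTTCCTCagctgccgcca
Rps15 (chr7:10068096-10068175, minus strand): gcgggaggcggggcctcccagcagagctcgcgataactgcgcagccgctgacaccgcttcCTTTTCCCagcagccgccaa
Rps27 (chr2:177964587-177964666, minus strand): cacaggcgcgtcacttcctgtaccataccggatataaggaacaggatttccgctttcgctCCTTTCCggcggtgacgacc
Rps16 (chr1:92770598-92770677, plus strand): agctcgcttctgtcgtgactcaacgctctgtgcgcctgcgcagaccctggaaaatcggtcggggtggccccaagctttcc
Rps19 (chr1:89608628-89608707, plus strand): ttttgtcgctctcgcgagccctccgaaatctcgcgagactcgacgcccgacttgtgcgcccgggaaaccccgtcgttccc
Rps6 (chr5:106420521-106420600, minus strand): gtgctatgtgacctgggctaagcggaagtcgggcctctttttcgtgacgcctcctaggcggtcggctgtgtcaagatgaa
Rpl29 (chr8:115947583-115947662, plus strand): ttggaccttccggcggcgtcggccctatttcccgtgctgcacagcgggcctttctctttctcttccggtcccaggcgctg
Rpl21 (chr12:13386134-13386213, minus strand): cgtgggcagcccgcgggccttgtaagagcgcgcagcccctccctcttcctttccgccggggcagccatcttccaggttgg
A run of pyrimidines ends a few bases before the annotated start in Rpl21 and crosses the start in Rpl29. The absence of capitals therefore says only that the annotated base does not begin such a run.

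Other letters were searched on both strands of the 300 bases. The letters CCGGAAG, the core bound by ETS factors such as GABP, were found in 31.5% of the matched genes and in 8.75% of all entries. The letters AAGATGG, part of the site of YY1, were found in 16.7% against 7.01%, and GGGCGG, the core of the Sp1 site, in 57.4% against 33.1%. The TATA box letters TATAAA were no more frequent than elsewhere (13% against 14.2%). Genes with and without the pyrimidine run at the start had close median differences in each comparison described further on. After irradiation at 1 week the medians were -0.15 for the 19 genes with the run and -0.16 for the 35 without it, on the log2 scale. After irradiation at 4 months they were 0.13 and 0.15. This split rests on the annotated base alone. A run near the start was found in 41 of the 54 matched genes, and the copies Rps27l and Rps15al4 are among those without a run at the start. The split therefore cannot show whether the TOP motif made a difference.

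The libraries held 14835400 to 18138102 counts on genes. The ribosomal protein genes took 2.11% of them in all, of which the 38 genes of the 60S subunit took 1.19% and the 29 of the 40S subunit 0.909%. The remaining 6 of the 73 genes are retrocopies or paralogs (Rps27a-ps1, Rpl32-ps3, Rpl31l4, Rps15al4, Rps27l and Rpl10l), with 0.0157% of the counts. The members with the lowest mean counts were Rpl10l with 115 and Rpl31l4 with 134, and just under the minimum stood second identifiers of Rpl9 with 90.1 and of Rpl38 with 79. Another 292 identifiers, 48 of them with a mean of 100 counts or more, were described as ribosomal proteins under other names and took 0.271% of the counts. Reads from near-identical copies may be split between such rows, and how the counting treated them is not given in the sources used here. All 73 genes passed the filter on low counts in each comparison. The identities of 3 genes are uncertain: the row of Rps18 carries the description of B3galt4, that of Rps19 is described as S19-like2, and Rpl30 shares its symbol with a row annotated as a lncRNA. Rpl7, Rpl10, Rpl13a, Rps7 and several other ribosomal protein genes, such as Rpl27a, Rpl37a and Rps26, were not among the 73 genes and were not analysed here.

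Levels were compared per length, as TPM (a length-scaled share of transcripts). The 73 genes had a median of 269 TPM, and all 15684 genes tested had a median of 6.44 TPM. Only the 73 genes had to reach a mean of 100 raw counts, so part of this gap follows from how they were chosen. The 40S genes without copies had a median of 261 TPM and the 60S genes 304 TPM. Rps29, which sits at the head of the 40S subunit, was the highest with 982 TPM, followed by Rps27 with 727 TPM and Rpl19 with 637 TPM. The lowest genes were the copies Rpl10l with 2.82 TPM, Rpl31l4 with 17.1 TPM and Rps15al4 with 24.5 TPM. Within the 67 genes without copies the range was from 31.9 TPM for Rpl22 to 982 TPM for Rps29. TPM rests on the length of the single transcript used, and Rpl8 was assigned a transcript of 5755 bases, so its 47.4 TPM is not comparable with the level of its neighbours.

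**Figure D1:**
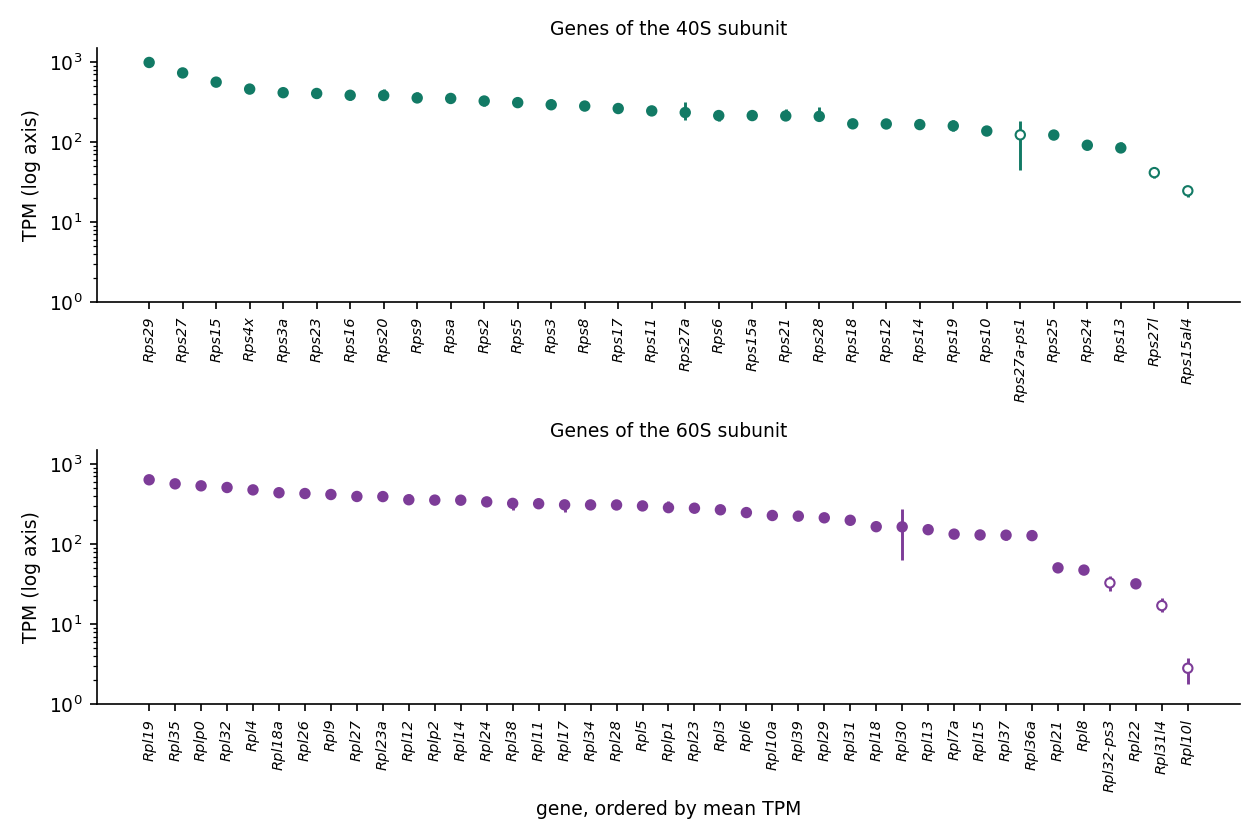
Mean TPM over 8 libraries of each gene (points, log axis), with the lowest and highest library (vertical line), for the 40S and the 60S subunit, and open points for retrocopies and paralogs. Most genes lie between 100 and 1000 TPM with a narrow range, and Rps27a-ps1 and Rpl30 have the widest ranges.

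The ribosomal protein genes varied little between rats of the same group and moved together between libraries. The median SD of log2 CPM (CPM, counts scaled to library size by TMM) within groups was 0.072 for the 73 genes and 0.103 for the 10528 genes with at least 8 CPM. These sets were not matched on level. The median of the mean counts was 4458 for the 73 genes and 309 for all 15684 genes tested, and low counts add noise. The lower SD is therefore not shown to be a trait of ribosomal protein genes. Rpl28, Rpl21 and Rplp0 were the steadiest, with an SD of 0.030, 0.030 and 0.031. Rps27a-ps1 (1.03), Rpl30 (0.64) and Rpl10l (0.30) were the least steady. Over the 8 libraries, the median SD of the 67 genes without copies was 0.116, and it was 0.057 after the median of these genes in each library had been subtracted. The genes thus shared about the same shift in each library.

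The shared shift was highest in rats sham-irradiated at 1 week and lowest in rats sham-irradiated at 4 months. As the median of the 73 genes, each taken as log2 CPM minus its own mean over 8 libraries, the values were 0.055 and 0.18 for 1w0Gy and -0.013 and -0.041 for 1w4Gy. They were -0.079 and -0.15 for 4m0Gy and 0.043 and 0.033 for 4m4Gy. Both 1w4Gy libraries were below both 1w0Gy libraries, and both 4m4Gy libraries were above both 4m0Gy libraries. The SD within groups was 0.052. The share of all counts ran in the same order, with means of 2.30% ± 0.122 for 1w0Gy, 2.05% ± 0.0186 for 1w4Gy, 1.94% ± 0.0516 for 4m0Gy and 2.15% ± 0.0715 for 4m4Gy (SD, n = 2 each). Library 1w0Gy replicate 2 stood highest: 72 of the 73 genes were above their own mean in it, against 55 in its replicate. In 4m0Gy replicate 2 only 2 of the 73 genes were above their mean. In bulk tissue, a smaller number of cells rich in ribosomal mRNA and less such mRNA in each cell cannot be told apart.

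**Figure D2:**
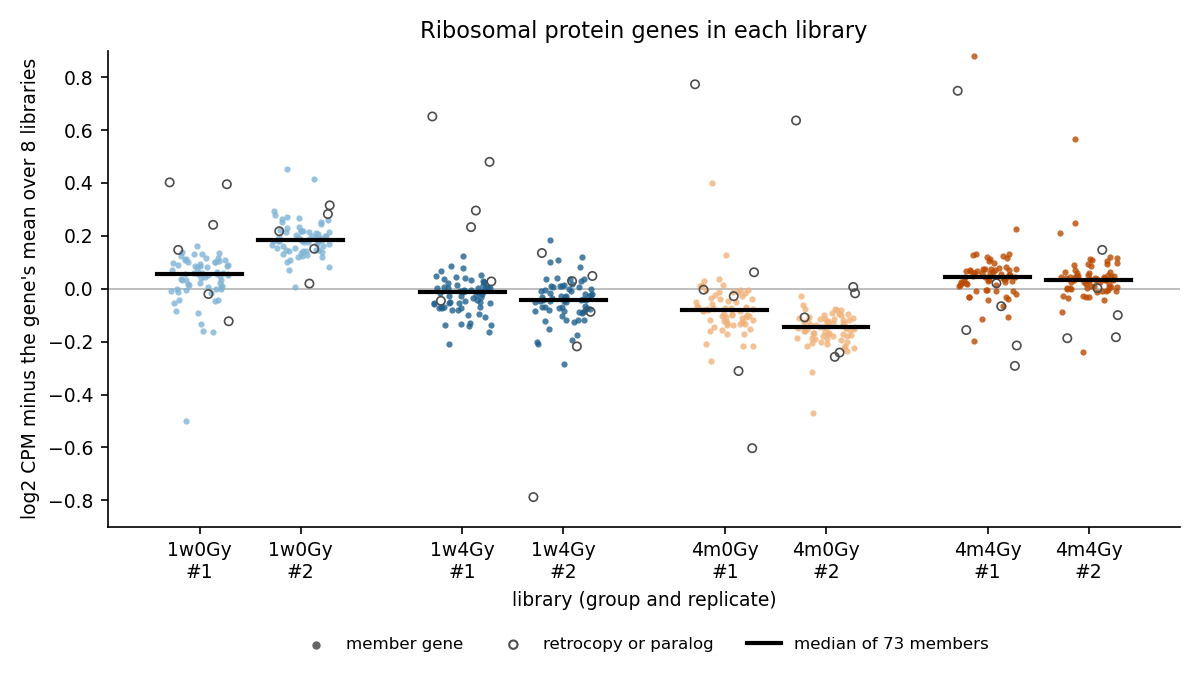
Each point is 1 gene in 1 library, as log2 CPM minus its mean over 8 libraries. Open circles are retrocopies and paralogs, bars are medians of the 73 genes, and 3 points lie outside the axis. The bars are highest in 1w0Gy replicate 2 (0.18) and lowest in 4m0Gy replicate 2 (-0.15).

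The first comparison asked what irradiation at 1 week left behind. Of the 73 genes, 70 had a lower fitted level in 1w4Gy than in 1w0Gy, with a median log2 fold change of -0.15, where the median of all genes tested was within 0.01 of 0. None passed the test (edgeR quasi-likelihood, adjusted p under 0.05), where 0.00651% of all genes did. With DESeq2 and with limma on log2(TPM + 1) the count was also 0. An unadjusted p under 0.05 was reached in 7 genes, all lower, with a background of 2.37% of genes lower and 3.31% higher. The groups did not overlap in 49 of the 73 genes that were lower, against a background of 18%, and in 1 that was higher (background 17.6%). Without 1w0Gy replicate 2 the median was -0.077, and without 1w0Gy replicate 1 it was -0.22, so the size of the difference depended on which sham library was kept.

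The lowest values at 1 week belonged to Rpl30, Rpl12 and Rps27a, and the highest to Rps27a-ps1, Rps27l and Rps2. Rpl12, a protein at the base of the ribosomal stalk, stood at 394 and 444 CPM in 1w0Gy and at 331 and 352 CPM in 1w4Gy. Its groups did not overlap, and its log2 fold change was -0.30 ± 0.10 (SE, n = 2 per group, edgeR adjusted p = 0.875). A second identifier of Rpl12, with 9.16% to 13.3% of the pair, went the other way at 1 week (0.11) and gave 0.62 at 4 months. On the sum of both rows the log2 differences were -0.25 and 0.15. The row used gave -0.29 and 0.094 (ratios of group mean CPM). Rps2, a protein at the mRNA entry channel, was the only gene without copies with a positive value (0.03 ± 0.10). It had 321 and 366.1 CPM in 1w0Gy and 343 and 359 CPM in 1w4Gy, so its groups overlapped.

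The second comparison asked the same of irradiation at 4 months, and here the sign was the opposite. In 4m4Gy, 66 of the 73 genes had a higher fitted level than in 4m0Gy, with a median log2 fold change of 0.14 against 0.009 for all genes tested. None passed the test, where 0.0197% of all genes did, and the count was 0 with DESeq2 and limma as well. An unadjusted p under 0.05 was reached in 23 of the 73 genes, all higher, against a background of 3.44% higher and 4.96% lower. With DESeq2 this number was 16, and with limma on TPM it was 11 higher and 2 lower. The background given is that of edgeR alone. The groups did not overlap in 58 genes that were higher (background 22%) and in 2 that were lower (background 18%).

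The smallest edgeR adjusted p at 4 months was that of Rpl29 (0.334), a small basic protein of the 60S subunit. It had 220 and 213 CPM in 4m0Gy and 268 and 261 CPM in 4m4Gy, with a log2 fold change of 0.28 ± 0.07 (edgeR, SE, n = 2 per group). Rps16, a 40S protein whose tail reaches the decoding site, had 378.8 and 367.5 CPM in 4m0Gy and 462 and 442 CPM in 4m4Gy. Its log2 fold change was 0.27 ± 0.07 (edgeR adjusted p = 0.379). In both genes every irradiated library was above every sham library. The genes with negative values were Rps27a-ps1, Rpl31l4, Rps15al4, Rpl17, Rps15a, Rps21 and Rpl27, and 3 of these 7 are copies.

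Whether the response differed between the ages was tested as the interaction of age and irradiation over all 8 libraries. The interaction value, the difference at 4 months minus that at 1 week, was positive in 70 of the 73 genes, with a median of 0.29 against 0.015 for all genes tested. None of the 73 passed the test, and 0% of all genes did. The smallest adjusted p was 0.384 in edgeR (Rpl21) and 0.0525 in DESeq2, which also called 0 genes. An unadjusted p under 0.05 was reached in 42 of the 73 genes, all positive, against a background of 3.41% of genes positive and 5.71% negative. DESeq2 gave 38 such genes and limma 25, while the background given is that of edgeR alone.

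Counted by library values, 41 of the 73 genes were lower in both irradiated libraries at 1 week and higher in both at 4 months, without any overlap. The background of this pattern was 4.73%, and none of the 73 genes had the opposite pattern (background 4.62%). Among 797 other transcripts under 1200 bases with at least 8 CPM, the same pattern was seen in 13.8%. It was seen in 1.19% of 3106 transcripts over 4000 bases. In lists described further on, it was seen in 50% of 14 other TOP mRNAs and 24% of 75 subunits of oxidative phosphorylation. Among 69 mitochondrial ribosomal proteins the share was 17.4%. All these counts rest on values without removal of a trend on transcript length. Rps16 was the member without copies and with known identity that had the highest interaction value other than Rps27a. It had 469 and 487 CPM in 1w0Gy, 421 and 402 CPM in 1w4Gy, 378.8 and 367.5 CPM in 4m0Gy, and 462 and 442 CPM in 4m4Gy. The value was 0.49 ± 0.11 (SE, edgeR adjusted p = 0.3996). Rpl21, a 60S protein near the 5S rRNA, had 152 and 154 CPM in 1w0Gy, 135 and 128 CPM in 1w4Gy, 126 and 124 CPM in 4m0Gy, and 150.5 and 147 CPM in 4m4Gy. Its value was 0.47 ± 0.10. In both genes the 4m4Gy libraries lay near those of 1w0Gy, with the other groups below. Across the 67 genes without copies, the differences at both ages were weakly related, with r = -0.21 (Pearson) and rho = 0.075 (Spearman). Genes of a shared pathway are not independent replicates, so these are descriptions.

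**Figure D3:**
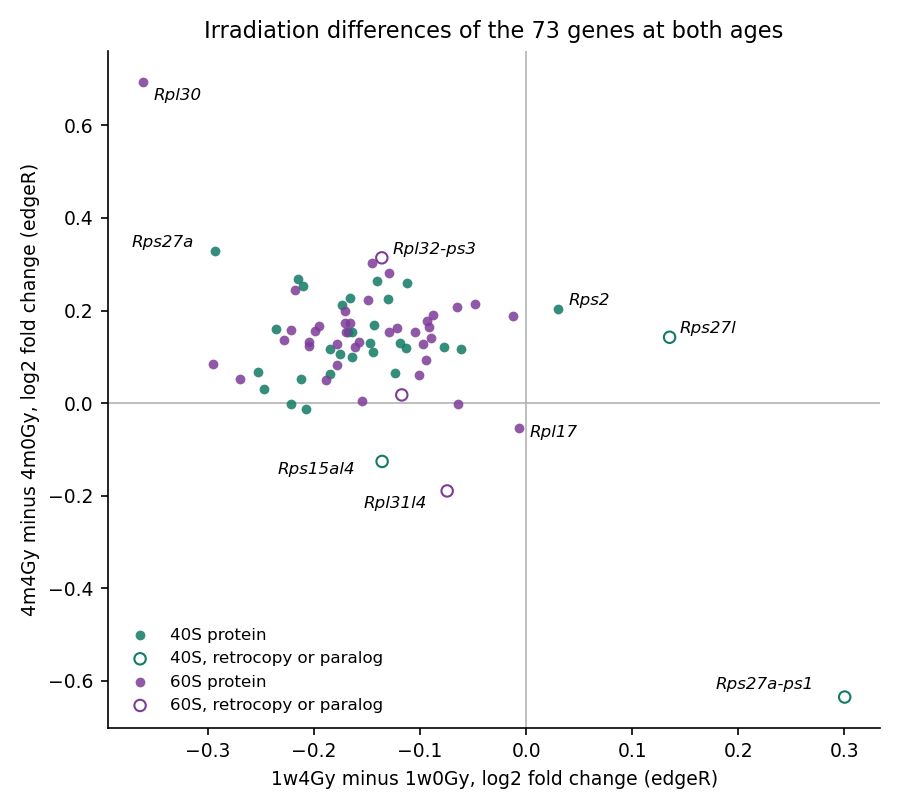
Log2 fold change of each of the 73 genes after irradiation at 1 week (x axis) and at 4 months (y axis), by subunit, with open circles for retrocopies and paralogs. Most points lie in the upper left, lower at 1 week and higher at 4 months. Rpl30, Rps27a and Rps27a-ps1 lie apart.

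Over both ages, the differences cancelled. The comparison of the 4 irradiated with the 4 sham libraries, with age in the model, gave a positive value in 36 and a negative one in 37 of the 73 genes, and the median was -0.00046. None passed the test (background 0.013%) and 0 reached an unadjusted p under 0.05 in edgeR and in DESeq2, with an edgeR background of 2.64% higher and 1.33% lower. In limma on TPM, 2 were lower at that level. In 0 genes did the irradiated and sham libraries separate, against a background of 1.03% higher and 0.5% lower. Rpl30 (0.18), Rps27l (0.14) and Rps2 (0.12) had the highest values, and Rps27a-ps1 (-0.17), Rps15al4 and Rpl31l4 (both -0.13) had the lowest.

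The widest difference of the 73 genes lay between the sham-irradiated groups. In 4m0Gy, 70 of the 73 genes were lower than in 1w0Gy, with a median log2 fold change of -0.23 against 0.000135 for all genes tested. An unadjusted p under 0.05 was reached in 50 genes, all lower, against a background of 8.88% lower and 8.9% higher. The groups did not overlap in 63 genes that were lower and 1 that was higher (background 25.1% in each direction). None passed the adjusted threshold in edgeR, where 1.06% of all genes did. DESeq2 called 4 genes, Rps19, Rps16, Rps27a and Rplp0, and its share of calls over all genes is not given here. The smallest adjusted p in edgeR was 0.0545, for Rps19. Rps19 encodes a 40S protein needed to mature the small subunit, and it is the gene most often mutated in Diamond-Blackfan anaemia. The row counted here is described as S19-like2, so its identity as Rps19 is uncertain. It had 212 and 232 CPM in 1w0Gy and 168 and 167 CPM in 4m0Gy, a log2 fold change of -0.40 ± 0.07 (edgeR, SE, n = 2 per group). In the irradiated groups it stood between these levels, with 199 and 194 CPM in 1w4Gy and 190 and 200.3 CPM in 4m4Gy.

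Between the irradiated groups the age difference was small, and its sign depended on the processing. In 4m4Gy, 58 of the 73 genes were higher than in 1w4Gy, with a median of 0.068 against 0.00062 for all genes tested. None passed the test (background 0.89%), and 1 gene, Rpl37, reached an unadjusted p under 0.05 in the higher direction, against a background of 7.31% higher and 7.53% lower. The groups did not overlap in 41 genes that were higher (background 25%) and 6 that were lower (background 22.8%). With a trend on transcript length removed, 35 genes were higher and 38 lower, with a median of -0.0084, and limma on TPM gave a median of 0.0068. DESeq2 called 0, with 0 genes at the unadjusted level. Rpl37, a 60S protein beside the exit tunnel, had 47 and 51 CPM in 1w4Gy and 60.5 and 55.3 CPM in 4m4Gy. The comparison of sham ages shares its samples with both irradiation comparisons, so their signs are not independent of one another.

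The ribosomal stalk, which recruits the translation factors with GTPase activity, is made of Rplp0, Rplp1 and Rplp2 and is anchored beside Rpl12. Its 4 genes were all lower after irradiation at 1 week of age (median -0.23) and in 4m0Gy than in 1w0Gy (median -0.27), and none passed the adjusted test in edgeR. Rplp0 had 820 and 840 CPM in 1w0Gy, 729 and 721 CPM in 1w4Gy, 658 and 649 CPM in 4m0Gy, and 758 and 718 CPM in 4m4Gy. The irradiated libraries of both ages met in the middle, and the sham libraries formed the highest and the lowest pair. The age difference in sham rats was -0.34 ± 0.07 (edgeR adjusted p = 0.0784). Rplp1 and Rplp2, which form dimers on Rplp0, differed by only 0.05 each at 4 months.

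The 5S RNP holds Rpl5 and Rpl11, the pair that binds MDM2 when ribosome assembly is disturbed. Rpl11 had 331 and 352 CPM in 1w0Gy, 296 and 297 CPM in 1w4Gy, 294 and 285 CPM in 4m0Gy, and 326 and 312 CPM in 4m4Gy. Its groups did not overlap at either age, with a log2 fold change of -0.20 ± 0.09 at 1 week and 0.13 ± 0.07 at 4 months (edgeR adjusted p = 0.875 and 0.665). Rpl5 had 529 and 595 CPM in 1w0Gy and 496 and 560 CPM in 1w4Gy. Here the groups overlapped at 1 week, and the log2 fold change was -0.09 ± 0.11.

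Of the proteins near the peptidyl transferase centre, where peptide bonds form, Rpl3 and Rpl8 were measured. Rpl3 had 663 and 706 CPM in 1w0Gy, 600 and 569 CPM in 1w4Gy and 563 and 585 CPM in 4m0Gy, while 4m4Gy stood at 635 CPM in both libraries. Its groups did not overlap at either age, and the interaction value was 0.37 ± 0.11 (edgeR adjusted p = 0.422). Rpl8 gave -0.18 at 1 week and 0.13 at 4 months. At the exit tunnel, through which the new chain leaves, Rpl4 gave -0.20 and 0.16. Rpl17, which lies at the mouth of the tunnel, did not share the pattern. It had 242 and 222 CPM in 1w0Gy, 223 and 238 CPM in 1w4Gy, 226 and 204 CPM in 4m0Gy, and 230 and 187 CPM in 4m4Gy, so that its groups overlapped at both ages. Its interaction value was -0.045 ± 0.15. Rpl39, also at the tunnel, gave -0.10 and 0.061.

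At the decoding site and the mRNA channel of the 40S subunit, Rps23, Rps15, Rps3 and Rps2 all had positive values at 4 months, with a median of 0.18. Rps23, which helps to keep decoding accurate, had 289 and 264 CPM in 4m0Gy and 340 and 325 CPM in 4m4Gy (0.26 ± 0.08, edgeR adjusted p = 0.425). Rps15 had 318 and 347 CPM in 1w0Gy and 296 and 289 CPM in 1w4Gy (-0.18 ± 0.10). Rps6 is the substrate of the S6 kinases downstream of mTOR. It had 537 and 579.5 CPM in 1w0Gy, 497 and 515 CPM in 1w4Gy, 445 and 467 CPM in 4m0Gy, and 543 and 559 CPM in 4m4Gy. Its difference was 0.26 ± 0.07 at 4 months (edgeR adjusted p = 0.395) and -0.14 ± 0.10 at 1 week, and neither pair of groups overlapped. These are levels of mRNA, and the phosphorylation of the protein was not measured.

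Rps27a, which is made as a fusion of ubiquitin with a 40S protein, departed from the rest together with the gene described as its pseudogene, Rps27a-ps1. Rps27a had 266 and 337 CPM in 1w0Gy, 212 and 279 CPM in 1w4Gy, 203 and 198 CPM in 4m0Gy, and 214 and 292 CPM in 4m4Gy. Rps27a-ps1 had 89.1 and 28.6 CPM in 1w0Gy, 106 and 39 CPM in 1w4Gy, 115 and 105 CPM in 4m0Gy, and 113 and 29.4 CPM in 4m4Gy. Both 4m0Gy libraries had a high level of the copy, and in the other groups the replicates stood far apart, with the gene lower where the copy was higher. The copy made up 7.83% of the pair in 1w0Gy replicate 2, 12.2% in 1w4Gy replicate 2 and 9.15% in 4m4Gy replicate 2. It made up 25.1% in 1w0Gy replicate 1 and 33.3% to 36.2% in the 4 remaining libraries. The sum of both rows was steady, between 303 and 365 CPM. On the sum, the log2 differences were -0.18 at 1 week, 0.064 at 4 months and -0.21 between the sham ages, where Rps27a alone gave -0.30, 0.32 and -0.58 (ratios of group mean CPM). The differences of Rps27a alone were thus larger than those of the sum, also between the sham groups, where DESeq2 called it.

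**Figure D4:**
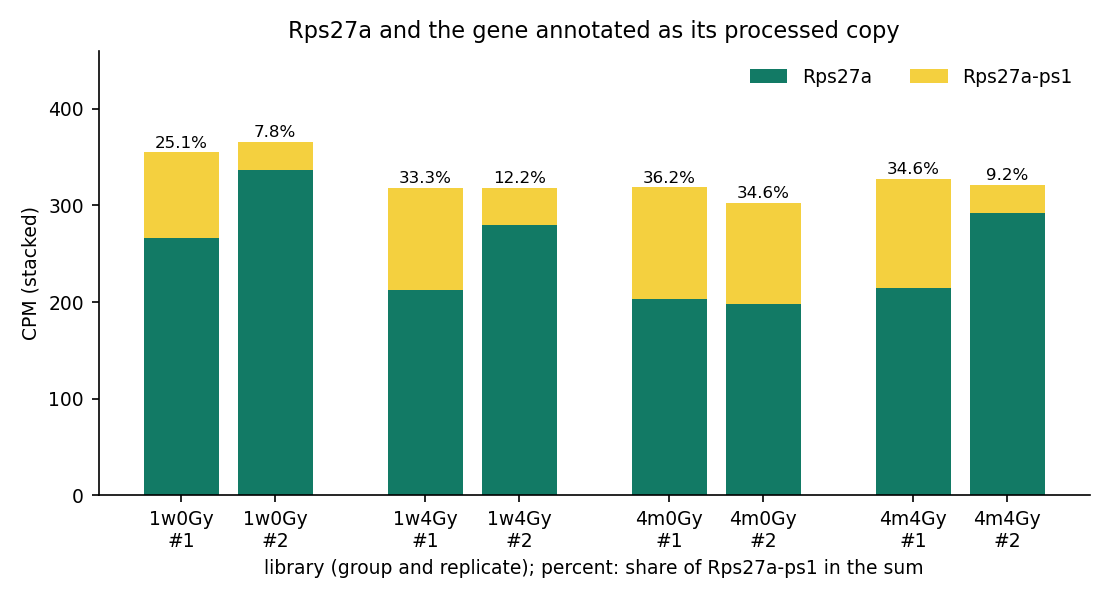
CPM of Rps27a and of Rps27a-ps1, stacked, in each library, with the share of the copy above the bar. The sum stays between 303 and 365 CPM, while the share of the copy is 7.83% to 12.2% in 3 libraries, 25.1% in 1 and 33.3% to 36.2% in 4.

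Rpl30 behaved in a like manner with another row that carries its name. The protein-coding row of Rpl30 had 56.3 and 96.4 CPM in 1w0Gy, 33.3 and 85.6 CPM in 1w4Gy, 105 and 57.6 CPM in 4m0Gy, and 147 and 118 CPM in 4m4Gy. At 1 week its replicates differed by more than the groups, which overlapped (-0.36 ± 0.66). At 4 months both irradiated libraries were above both sham libraries (0.69 ± 0.41, edgeR adjusted p = 0.781). The row annotated as a lncRNA under the same symbol had 166 and 159 CPM in 1w0Gy, 175 and 144 CPM in 1w4Gy, 123 and 149 CPM in 4m0Gy, and 87.8 and 117 CPM in 4m4Gy. The sum of both rows ran from 206 to 255 CPM. On that sum the log2 differences were -0.13 at 1 week, 0.11 at 4 months and -0.14 between the sham ages, where the medians of the 73 genes were -0.15, 0.14 and -0.23.

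The 6 paralogs and copies differed among themselves: 4 had negative values at 1 week, 3 had positive values at 4 months, and 5 were lower in 4m0Gy than in 1w0Gy. Rps27l, a paralog of Rps27 that is known as a p53 target in human cells, had 35.3 and 36.3 CPM in 1w0Gy, 42.1 and 36.6 CPM in 1w4Gy, 35.1 and 30 CPM in 4m0Gy, and 36.4 and 35.9 CPM in 4m4Gy. Its lowest irradiated library exceeded its highest sham library at both ages, by a narrow margin, with values of 0.14 ± 0.10 at 1 week and at 4 months (edgeR adjusted p = 0.890 and 0.771). It was the 1 gene of the 73 that was higher without overlap at 1 week. Its parent Rps27 had 369 and 417 CPM in 1w0Gy and 324 and 339 CPM in 1w4Gy, a value of -0.25 ± 0.10 (edgeR adjusted p = 0.875). Rpl32-ps3 had the signs of most of the 73 genes, with -0.14 at 1 week and -0.48 between the sham ages, and it gave 0.31 ± 0.14 at 4 months, on 12.2 and 12.8 CPM in 4m0Gy and 14.5 and 16.8 CPM in 4m4Gy. Rpl31l4 and Rps15al4 gave -0.19 and -0.13 there, both lower without overlap. Rpl10l, a paralog best known from the testis, had 8.86 and 8.19 CPM in 1w0Gy and 4.38 and 6.74 CPM in 4m0Gy. Its age difference of -0.61 ± 0.23 in sham rats was the largest negative one of the 73 genes (edgeR adjusted p = 0.229). In Rpl38, which has been tied to the translation of Hox mRNAs in mice, the age difference in sham rats was 0.004, and it turned negative under 3 other settings. Of the parents whose paralogs were listed, Rpl22, Rpl36a, Rpl39 and Rps4x were lower at 1 week (-0.10, -0.15, -0.10 and -0.11). Of the paralogs themselves Rpl22l1 gave -0.21 and Rpl7l1 -0.01.

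Part of the shared shift went with transcript length. After a trend of log2 CPM on length had been removed in each library, the median was -0.087 at 1 week, 0.066 at 4 months, 0.14 for the interaction and -0.14 between the sham ages. At an unadjusted p under 0.05 there were then 2 lower genes (background 2.42%) and 1 higher gene (background 2.77%) at 1 week, and 8 higher genes at 4 months (background 2.87%), against 7 and 23 without this step. The number was 12 in the interaction (background 2.71%) and 28 between the sham ages (background 7.77%), and 0 passed the adjusted test. The library medians became 0.029 and 0.14 for 1w0Gy and -0.026 and 0.033 for 1w4Gy. For 4m0Gy they became -0.051 and -0.082, and for 4m4Gy -0.0060 and -0.0045. The 1-week groups then overlapped, and the 4-month groups did not. The short members were not the ones that kept the pattern. With the trend removed, the median interaction value was 0.066 for the 14 genes without copies under 600 bases, 0.14 for the 31 between 600 and 1200 bases, and 0.23 for the 22 of 1200 bases or more. What set the length trend was not tested.

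Other lists of genes for protein synthesis were described beside the ribosomal protein genes. Of 18 other TOP mRNAs, for elongation and initiation factors and their like, 14 were tested. All 14 were negative at 1 week (median -0.095) and positive at 4 months (median 0.12), and the median interaction value was 0.23, or 0.18 with the length trend removed. Eif3f, a subunit of the initiation factor eIF3, had the largest interaction value of these (0.36, edgeR adjusted p = 0.409). Tpt1 (0.33) and Npm1 (0.30) followed. Of 69 mitochondrial ribosomal proteins, 53 were negative at 1 week and 55 positive at 4 months, with a median interaction value of 0.17 that became 0.047 with the length trend removed. Of 75 subunits of oxidative phosphorylation, 68 were negative at 1 week and 62 positive at 4 months, and the median interaction value went from 0.18 to 0.061. The 44 genes of ribosome biogenesis had a median interaction value of 0.12. Bop1, a factor of 60S assembly, had the smallest adjusted p of them between the sham ages (-0.47, adjusted p = 0.0629 in edgeR). The 20 genes of growth signalling had a median interaction value of -0.050, and Myc, which drives ribosome production, gave -0.78 (edgeR adjusted p = 0.444). No gene of these lists passed the test in any of the comparisons between irradiated and sham rats. The remaining ribosomal genes outside the symbol rule, Rack1 and Fau, gave -0.16 and -0.15 at 1 week and 0.17 and 0.11 at 4 months.

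**Figure D5:**
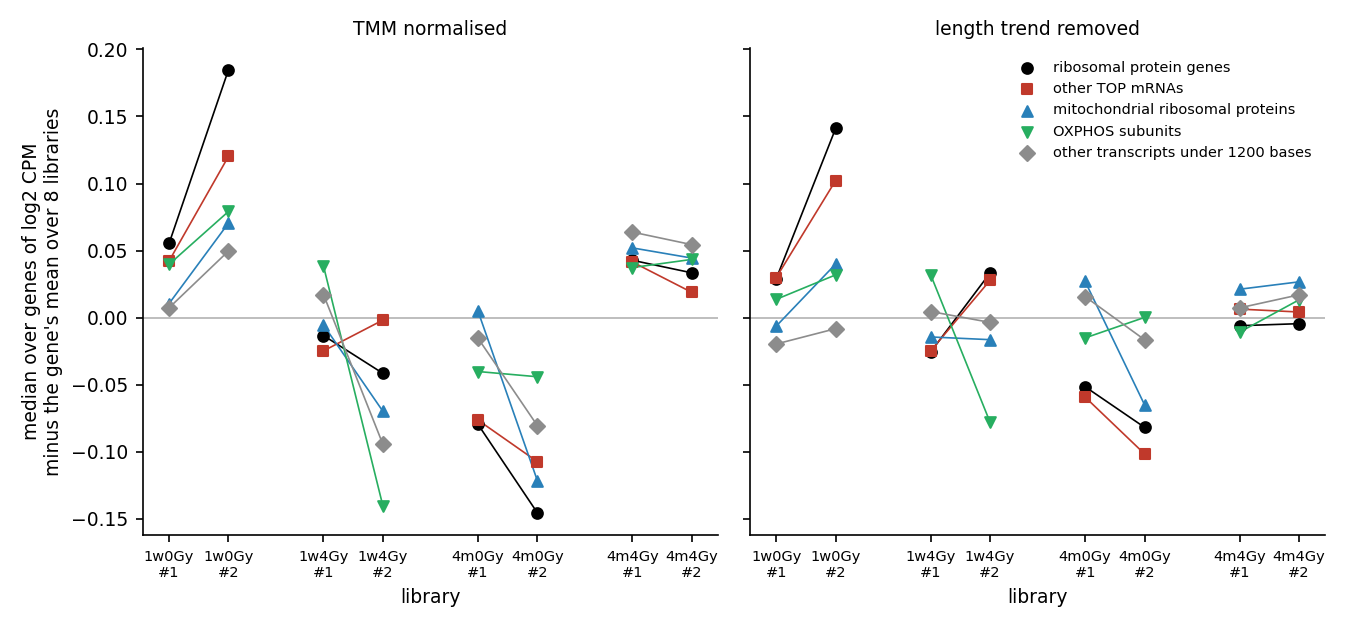
Median of each list in each library, as log2 CPM minus the gene's mean over 8 libraries, before (left) and after (right) removal of the trend on transcript length. Lines join the 2 replicates of a group. On the right, both 1w0Gy libraries stay above both 4m0Gy libraries in the ribosomal protein genes and the other TOP mRNAs, and by a smaller margin in OXPHOS subunits, while the libraries of these groups overlap in mitochondrial ribosomal proteins and in other transcripts under 1200 bases.

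Markers of thyroid follicular cells were high in each library: all 12 listed genes were found, 11 of them with at least 1 CPM, with a sum of 190653 to 225889 CPM. Thyroglobulin (Tg) alone took 18.5% to 21.3% of all counts, so this sum is mostly Tg and says little of the other listed genes. The fibroblast list of 6 genes, which includes the collagens, had sums of 2541 to 3066 CPM in 1w0Gy, 2234 to 2684 CPM in 1w4Gy, 844 to 1148 CPM in 4m0Gy and 991 to 1094 CPM in 4m4Gy. It was higher in both 1-week groups than in both 4-month groups, and so it moved with the age difference of the ribosomal protein genes in sham rats. Between the irradiated groups the directions differed, as 58 of the 73 genes were higher in 4m4Gy than in 1w4Gy. The macrophage list of 7 genes ran from 73.1 to 109 CPM in 4m0Gy and from 132 to 161 CPM in 1w0Gy. The list of 8 genes of dividing cells had 52.5 to 57.6 CPM in 1w0Gy, 55.2 to 66 CPM in 1w4Gy, 43.5 to 47.3 CPM in 4m0Gy and 51.7 to 57.9 CPM in 4m4Gy. Its order at 4 months was that of the ribosomal protein genes, and at 1 week the irradiated range lay partly above the sham range. The parathyroid list of 3 genes was at 343 CPM in 4m4Gy replicate 2 and at 1943 to 5462 CPM in the other libraries. The C cell list, which includes the calcitonin gene and of which 5 of 6 genes were found, ran the other way with age, from 3355 to 5762 CPM in the 1-week groups and from 6255 to 8433 CPM in the 4-month groups. After irradiation at 1 week the white fat list was lower, with 228 to 316 CPM in 1w0Gy and 168 to 173 CPM in 1w4Gy. The brown fat list stood at 60.8 to 85.5 CPM in 1w0Gy and at 27.2 to 45.6 CPM in 1w4Gy, and the parathyroid list was also lower without overlap. The endothelium list was higher, with 694 to 724 CPM in 1w0Gy and 823 to 865 CPM in 1w4Gy. At 4 months the lists of C cells, dividing cells, red blood cells, lymphocytes and, by a narrow margin, endothelium were higher in 4m4Gy without overlap. Of all single genes, 22% were higher without overlap in this comparison. The lymphocyte list had 1 of 10 genes with at least 1 CPM and sums of 4.25 to 8.91 CPM over the libraries. Of the red blood cell list, 2 of 5 genes were found. Between the sham ages, white fat (115 to 171 CPM in 4m0Gy) and red blood cells (779 to 787 CPM in 1w0Gy, 376 to 473 CPM in 4m0Gy) were lower in 4m0Gy. Macrophages, lymphocytes, dividing cells and fibroblasts were lower there as well, and the thyroid follicular sum, which is mostly Tg, was higher. The part of these cells in the results was not tested.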

How the data were processed

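Thyroid RNA of 8 male Wistar rats was sequenced as 100 bp paired reads. The authors mapped the reads with HISAT2 2.2.1 and counted them per transcript with featureCounts 2.0.0 (names and versions from the submitters' processing notes). The genome build and the treatment of strand and shared reads are not given in the sources used here. The deposited table holds raw counts, and RPKM and TPM values the authors derived from them. RPKM values entered only a summary of levels. The authors' TPM served for levels and for an alternative test.

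For each gene identifier the transcript with the highest summed count was kept. Each pair of groups was fitted with edgeR 4.0.16 in R 4.3.3 on the counts (TMM, filterByExpr, robust quasi-likelihood F-test, Benjamini-Hochberg adjustment over all genes tested, call at an adjusted p under 0.05). The interaction and the comparison of both ages used all 8 libraries. The script was tested on simulated counts. DESeq2 1.42.0, limma 3.58.1 on log2(TPM + 1), other scalings, filters, transcripts and a loess trend on length (span 0.5, genes of at least 8 CPM) were alternatives. The fitted length trend of each library entered the edgeR model as an offset. Replicates differed by more than sampling noise (chi-square over degrees of freedom 8.22 to 16.7). They were separate rats, and with 2 in a group the fit has 2 residual degrees of freedom before genes share information. An exact permutation of 2 against 2 cannot go below a two-sided p of 0.333, so no such test was run.

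The members and lists were chosen with earlier results of these data known. Named were the 3 highest and 3 lowest members of each comparison, by level and by spread, genes of fixed roles, paralogs with their parents, and those next to the count minimum. Members named for the smallest adjusted p, the search for the pyrimidine run and the rows of Rpl30 were added after values were seen. The fits without robust estimation, with every identifier of a symbol, without copies and with the crossed pairing were alternatives chosen after seeing the data. Promoters came from RefSeq. Intervals for single counts were not needed, as replicates give the error.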

Additional observations from a re-analysis of the deposited data

Results flagged for a closer look

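The shared level of the 73 ribosomal protein genes moved in opposite directions at both ages. As the difference of group means of the library medians (log2 CPM minus the gene's mean), it was -0.15 after irradiation at 1 week and 0.15 after irradiation at 4 months. Every irradiated library was below every sham library at 1 week and above every sham library at 4 months, which is why it stands here. With the trend on transcript length removed, the 1-week groups overlapped (0.029 and 0.14 for 1w0Gy, -0.026 and 0.033 for 1w4Gy), while the 4-month groups stayed apart (-0.051 and -0.082 for 4m0Gy, -0.0060 and -0.0045 for 4m4Gy). The difference between these shared levels was not tested. Gene by gene, the interaction test called 0 of the 73 genes in edgeR, in DESeq2 and in limma on TPM, with 42, 38 and 25 genes at an unadjusted p under 0.05. The background at that level is given for edgeR alone (3.41% of all genes positive, 5.71% negative).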

How the results depend on the processing

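The precision of each value rests on 2 libraries in a group, and counting depth limits only the copies with few reads, such as Rpl10l. With the length trend removed, the median of the 73 genes was -0.087 at 1 week, 0.066 at 4 months, 0.14 for the interaction, -0.14 between the sham ages and -0.0084 between the irradiated ages, where the sign turned. With limma on TPM it was 0.081 at 4 months, 0.21 for the interaction and 0.0068 between the irradiated ages. The number of genes called between the sham ages was 0 with edgeR, and it was 4 with DESeq2, 2 with library size alone, 6 with no filter, 1 with at least 10 counts in every sample, 1 with all 8 samples in one fit and 1 with the longest transcript. Fewer or more genes tested changes the adjustment in the filters, and otherwise the cause was not tested. The shares of all genes called under these other settings are not given, so the counts have no background beside them.

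The share of counts was 2.86%, 2.57%, 2.46% and 2.68% in 1w0Gy, 1w4Gy, 4m0Gy and 4m4Gy without thyroglobulin (Tg), and 1.92%, 1.70%, 1.61% and 1.78% for the 62 genes left when every symbol with l1 in it is dropped. With the length trend removed, the other TOP mRNAs had medians of 0.080 at 4 months and 0.18 for the interaction, and growth signalling turned to 0.0023 in the interaction. Mitochondrial ribosomal proteins then had -0.015, 0.025, 0.047 and -0.021 (1 week, 4 months, interaction, sham ages), and OXPHOS subunits 0.014, 0.061 and -0.019 (4 months, interaction, sham ages). With the length trend removed, 11 of the 73 genes were positive at 1 week, against 3 without this step. At 4 months the numbers were 54 and 66. Only some of the 73 genes were followed singly through the other settings. Of these, Rpl17 turned sign at 1 week with the length trend removed (0.086). At 4 months Rplp1 (-0.021), Rplp2 (-0.052), Rpl12 (-0.0020), Rpl39 (-0.037), Rpl10l (-0.011), Rpl36a (-0.093) and Rps27 (-0.071) did so. Rpl36a was at -0.0063 with no filter. Rpl38 between the sham ages was at -0.00510 with upper quartile scaling, -0.010 with library size alone and -0.000599 with transcripts summed.

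Leaving out 1 library at a time gave medians of -0.22 to -0.077 at 1 week (lowest without 1w0Gy replicate 1, highest without 1w0Gy replicate 2), 0.11 to 0.16 at 4 months, 0.21 to 0.37 for the interaction, -0.042 to 0.061 for both ages, -0.30 to -0.17 between the sham ages and 0.062 to 0.076 between the irradiated ages. A lone library is then assumed to vary like the others. Calls are not counted in these fits, as 1 library is left in a group. At 4 months Rpl30 was at 1.19 without 4m0Gy replicate 1, and Rps27a-ps1 at -1.91 without 4m4Gy replicate 1. Between the sham ages Rps27a-ps1 was at 1.94 without 1w0Gy replicate 1. Without 4m0Gy replicate 2, Rps19 was at -0.40 and Rpl10l at -0.96. Between the irradiated ages Rpl30 was at 0.63 and Rpl38 at 0.39 without 1w4Gy replicate 1. Without 1w4Gy replicate 2, Rpl30 was at 1.99. The range crossed 0 at 1 week for Rpl30 (-1.19 to 0.16), Rps2 (-0.062 to 0.13), Rps27a-ps1 (-0.60 to 1.34), Rpl5 (-0.18 to 0.0020), Rpl17 (-0.063 to 0.055), Rpl39 (-0.22 to 0.029) and Rpl10l (-0.44 to 0.15). At 4 months it did so for Rps27a-ps1 (-1.91 to 0.022), Rplp1 (-0.0030 to 0.097), Rpl17 (-0.21 to 0.076), Rpl10l (-0.26 to 0.36), Rpl36a (-0.054 to 0.058) and Rps27 (-0.034 to 0.088). It also did so for Rpl31l4 (-0.36 to 0.099) and Rpl17 (-0.20 to 0.089) in the interaction, for Rps27a-ps1 (-0.62 to 0.19) and Rpl30 (-0.083 to 0.49) over both ages, and for Rpl38 (-0.13 to 0.14) and Rpl30 (-0.41 to 0.53) between the sham ages.

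The replicate numbers are shared by the groups, but same-numbered libraries did not deviate together in every pair (correlations of -0.26 to 0.34 over 10528 genes), so they were taken to share only a number. With the replicate number as a block, 0 of the 73 genes were called in each comparison, with medians of -0.15 at 1 week, 0.14 at 4 months, 0.28 for the interaction and -0.23 between the sham ages. The crossed pairing of the sham groups called 3 genes, and its share of calls over all genes is not given.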
